A study of Mus musculus with 15 samples.

Results

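The genes described here are the kinase PINK1 and the receptors and regulators of mitophagy that are measured with it: Pink1, Bnip3, Bnip3l, Fundc1, Phb2, Bcl2l13, Mul1, Usp30, Vdac1 and Fkbp8. They were chosen by gene symbol, and all 10 had a row in both count tables, among 20910 genes in cultured mouse retinal pigment epithelium (mRPE) cells and 25038 genes in RPE/choroid tissue. RNA-seq was analysed in 15 libraries. The mRPE cells were isolated from C57/BL6J mice, pooled and immortalized with HPV E6/E7. For the knockout, cells made to express Cas9 from a lentivirus under puromycin selection were transfected with a scrambled or a Prom1 guide RNA. Whether the sequenced WT cells carried Cas9 and the scrambled guide is not given in the sources used here. There were 4 WT libraries, 3 libraries of the Prom1-KO clone KO22 and 2 of the Prom1-KO clone KO26, so each knockout line is a single clone. Library names placed 1 library of each line in batch 8995 and the remaining 3 WT, 2 KO22 and 1 KO26 libraries in batch 9262, which the study calls sequencing batches. Both KO26 libraries are those that the study named outliers after batch correction and removed. The tissue was RPE/choroid dissected from WT mice (3 libraries) and from mice labelled Prom1_KO (3 libraries), which came from a cross of Prom1 fl/fl with RPE65-Cre mice and were gavaged with Tamoxifen to delete Prom1 in the RPE. The study's methods give an age range of some weeks for its mice without tying it to the tissue donors, and whether WT mice received Tamoxifen is not given in the sources used here. Nothing in the labels says that mRPE libraries of one line came from separate cultures, so p-values measure the spread between these libraries, which may be technical.

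Mitophagy is the removal of mitochondria by autophagosomes. In the ubiquitin-dependent route, PINK1 is imported and degraded in healthy mitochondria but accumulates on the outer membrane of depolarized ones, where it phosphorylates ubiquitin; VDAC1 is among the outer-membrane proteins that are then ubiquitinated, and the deubiquitinase USP30 opposes the modification. In the receptor-dependent route, proteins of the mitochondrial membranes (BNIP3, BNIP3L, FUNDC1, BCL2L13, FKBP8 and, in the inner membrane, PHB2) recruit the autophagosome membrane themselves. The RPE is a post-mitotic epithelium with a high mitochondrial load, and loss of its mitochondrial quality control is studied in macular degeneration.

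The libraries held 8076188 to 27537863 counts in mRPE and 48154444 to 61766179 in tissue. The tissue library labelled Prom1_KO replicate 3 stood apart, with 84.2% of its counts on mitochondrially encoded genes against 64.9% to 71.3% in the other 5. This share covers every mitochondrially encoded gene counted, not only those of the list described below. Prom1 itself is not analysed here in mRPE, so the knockout could not be checked in these libraries. The study reports verifying it in its knockout lines by genomic DNA, Western blot and qPCR. In tissue, Prom1 was at 48.7, 49.6 and 53.3 CPM (counts scaled to library size) in WT and at 49.9, 48.1 and 35.5 CPM in libraries labelled Prom1_KO (log2 fold change -0.18 ± 0.16 SE, edgeR adjusted p = 0.824), so bulk tissue did not show the deletion. An RPE-restricted deletion leaves Prom1 RNA of other cells, and fewer cells of a type cannot be told apart from less RNA per cell in bulk tissue. Of the 15 RPE markers listed, 3 were analysed in mRPE (Best1, Mitf and Pmel, with summed levels of 5.38 to 38.7 CPM), so the labelled cell type could not be checked against Rpe65 or Rlbp1. The 7 fibroblast and sclera markers analysed in mRPE summed to 12840 to 17520 CPM in WT and 5625 to 8772 CPM in KO22. In KO26 they summed to 19880 and 21800 CPM. What these levels say of the cell type was not tested.

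Per kilobase of annotated exon, the members spanned a wide range of levels in WT mRPE cells. Bnip3l (37.5 ± 4.75 CPM per kb, SD, n = 4) and Bnip3 (37.3 ± 9.56), the paralogous receptors of hypoxic mitophagy, were highest and overlapped. Phb2 (15.7 ± 1.46) and Vdac1 (12.3 ± 3.57) came next and also overlapped, and so did Fundc1 (8.05 ± 0.670) and Fkbp8 (7.76 ± 0.487). Pink1 was seventh at 3.64 ± 0.457 CPM per kb, above Bcl2l13 (2.57 ± 0.194) and Usp30 (2.45 ± 0.105), whose ranges overlapped. Mul1, an outer-membrane ubiquitin ligase, was at 0.565 ± 0.0535 CPM per kb and was the lowest member in every WT library.

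In WT RPE/choroid the order was different. Vdac1 was first at 7.71 ± 0.889 CPM per kb (SD, n = 3), Bnip3l second at 6.02 ± 0.183 and Pink1 next at 4.25 ± 0.395, and their ranges did not overlap. The remaining members lay at or below 2.21 CPM per kb in each WT tissue library, with Bnip3 at 1.01 ± 0.275. Because the tables were normalized separately and most tissue counts were mitochondrially encoded, the absolute levels cannot be set against each other. A ratio of 2 genes within a library does not depend on the scaling. The ratio still sets an immortalized culture against mixed RPE/choroid of another library series. Cell makeup, culture and processing cannot be told apart in it. Bnip3 was 9.02 to 12.9 times Pink1 per kb in the 4 WT mRPE libraries and 0.201 to 0.281 times Pink1 in the 3 WT tissue libraries. The ratio was 0.203, 0.222 and 0.309 in tissue labelled Prom1_KO, so the groups of tissue overlapped in it. Bnip3l and Bnip3 were near parity in WT mRPE (Bnip3l at 0.882 to 1.26 times Bnip3), whereas Bnip3l was 4.73 to 7.61 times Bnip3 in WT tissue.

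**Figure D1:**
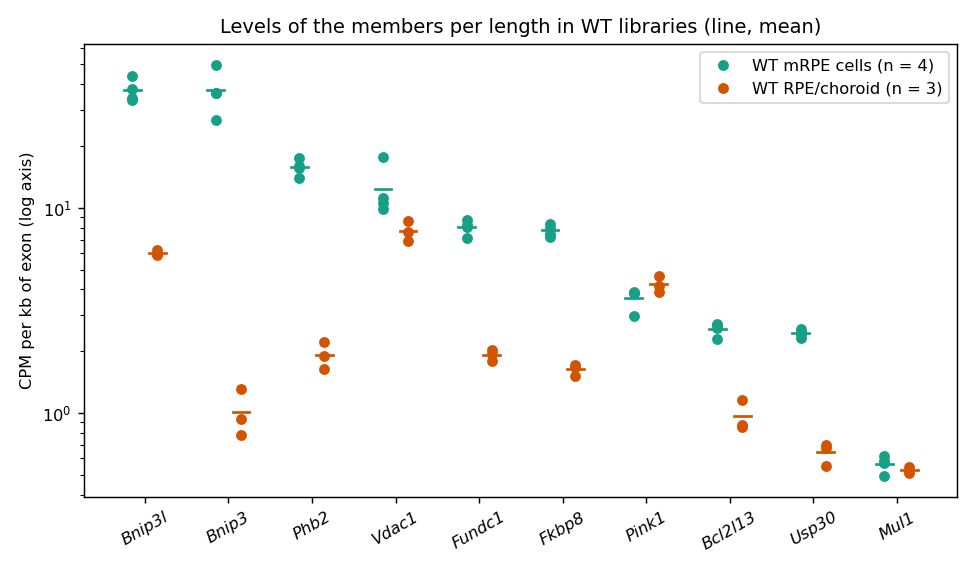
Level of each member in CPM per kb of exon (vertical log axis) in the 4 WT mRPE libraries (green) and the 3 WT RPE/choroid libraries (orange), with each point a library and each line a group mean. Bnip3 was in the top pair in culture and stood at 1.01 CPM per kb in tissue, while Pink1 stood at 3.64 and 4.25; levels of the 2 tables were normalized separately.

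To see how the members differed between Prom1-KO clone KO22 and WT, the 7 libraries of these lines were fitted with the batch as a term. Pink1 fell, Fundc1 fell slightly, and Vdac1, Fkbp8 and Phb2 rose. A member was called at an edgeR adjusted p under 0.05. All 10 members passed the filter on low counts; 3 were called higher, where 26.9% of all 20455 genes tested were, and 2 lower, where 26.1% were. Pink1 alone also passed the study's fold limit of 1.2 on the log2 scale, a double limit that 25.2% of genes passed. The share of members called was thus near that of all genes, and the median member log2 fold change was 0.12 against -0.03 for all genes.

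**Figure D2:**
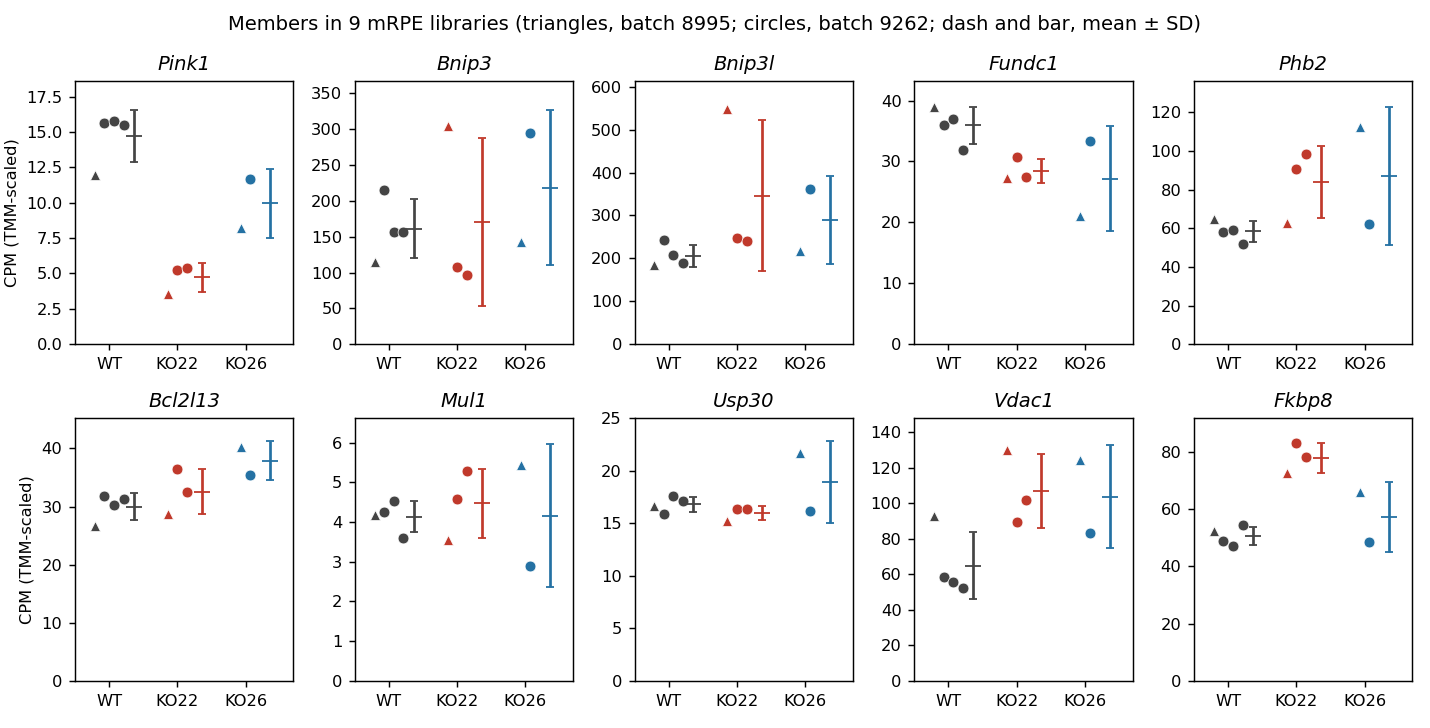
TMM-scaled CPM of each member (vertical axes from 0) in the WT, KO22 and KO26 mRPE libraries, with batch 8995 as triangles and batch 9262 as circles, and the dash and bar giving the mean ± SD. The 3 KO22 libraries lay between 3.55 and 5.35 CPM for Pink1 and the 4 WT libraries between 12.0 and 15.8 CPM, whereas Bnip3 and Bnip3l split by library within KO22 and KO26.

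Pink1 (ENSMUSG00000028756, chr4:138039346-138053618, minus strand, coordinates here and below being of GRCm39) was at 12.0 CPM in the WT library of batch 8995 and at 15.6, 15.8 and 15.5 CPM in the WT libraries of batch 9262. In KO22 it was at 3.55 CPM in batch 8995 and at 5.26 and 5.35 CPM in batch 9262, and in KO26 at 8.21 CPM in batch 8995 and 11.7 CPM in batch 9262. Every KO22 library was below every KO26 library, as for 24.6% of genes, and every KO26 library was below every WT library, as for 12.8%. KO22 lay below WT without overlap for 25.3% of genes. The raw counts behind these values were 41 to 109 in KO22, 101 and 177 in KO26 and 161 to 301 in WT. Pink1 fell by 1.61 ± 0.15 (SE) on the log2 scale in KO22, a 3.06-fold lower level (adjusted p = 2.73e-05), and the log2 difference was -1.62 within batch 8995 and -1.48 within batch 9262. The median log2 fold change of the 1071 genes tested on chromosome 4 was 0.26, and Pink1 differed from it by -1.87.

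The Pink1 exons share 1693 bases with other annotated genes, among them Ddost on the opposite strand, which encodes a subunit of the oligosaccharyltransferase. Ddost rose in KO22 by 1.03 ± 0.11 on the log2 scale (adjusted p = 6.85e-05), opposite in direction to Pink1. The libraries were made with a stranded kit, but whether the counting used the strand is not given in the sources used here. Bcl2l13 shares 3666 exonic bases with other genes and Usp30 2440, while Bnip3l and Mul1 share none. The summed level of 7 endothelial marker genes followed the same order over the mRPE lines as Pink1, at 154 to 239 CPM in WT, 58.0 and 76.2 CPM in KO26 and 5.43 to 7.28 CPM in KO22. Kdr made up nearly all of it (151 to 235 CPM in WT), while Pecam1 and Tek stayed under 1.31 CPM in every library. The summed level of the fibroblast and sclera markers was highest in KO26 and so did not follow that order. A part of other cells in the Pink1 difference was not tested. The 3 genes whose log2 CPM was most like that of Pink1 over the 9 mRPE libraries, which share line and batch, were Rufy2 (Pearson r = 0.996), Firre (r = 0.993) and 4930579H20Rik (r = 0.993).

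Bnip3 and Bnip3l encode the receptors that hypoxia-inducible factors (HIF) induce, and their libraries disagreed within a line. The promoter of Bnip3 is shown because its level is set beside HIF target genes, and that of Pink1 as the member with the largest difference. The windows are the 250 bases before the RefSeq start site, written 5′ to 3′ on the gene's strand. Their sequences are from RefSeq on GRCm38.p6, and each matched GRCm39 exactly once, at chr7:138511236-138511485 and chr4:138053608-138053857, both on the minus strand. Capitals mark the HIF core motifs ACGTG and GCGTG on either strand, with CACGTG holding ACGTG on both strands at once.
Bnip3: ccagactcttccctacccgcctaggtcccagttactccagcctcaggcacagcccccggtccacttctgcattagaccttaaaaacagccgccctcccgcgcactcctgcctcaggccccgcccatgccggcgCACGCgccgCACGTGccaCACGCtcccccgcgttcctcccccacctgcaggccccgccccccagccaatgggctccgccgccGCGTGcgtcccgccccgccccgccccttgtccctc
Pink1: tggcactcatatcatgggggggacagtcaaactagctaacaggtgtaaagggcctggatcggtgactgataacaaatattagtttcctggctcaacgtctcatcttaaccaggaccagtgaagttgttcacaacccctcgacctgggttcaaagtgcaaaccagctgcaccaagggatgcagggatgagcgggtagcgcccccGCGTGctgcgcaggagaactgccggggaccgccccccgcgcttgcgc
The Bnip3 window held ACGTG at 1 place, read on both strands, and GCGTG at 3 places, and the Pink1 window held GCGTG once and ACGTG not at all. Promoter windows were found for 9 of the 10 members, Bnip3l being the exception, and there were 10 windows, as Vdac1 had 2. ACGTG stood in 5 of them (1 each of Bnip3, Phb2, Mul1, Vdac1 and Fkbp8), and in 16.6% of 32851 mouse windows. Either motif stood in every member window but those of Fundc1 and Usp30, and in 38.6% of all windows. A match is a description of letters and does not show that a factor binds.

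Bnip3 (chr7:138490690-138511253, minus strand) was at 115 CPM in the WT library of batch 8995 and at 216, 157 and 157 CPM in the WT libraries of batch 9262. In KO22 it was at 305 CPM in batch 8995 but at 108 and 96.5 CPM in batch 9262, and in KO26 at 142 CPM in batch 8995 and 295 CPM in batch 9262. The KO22 libraries thus lay above WT in one batch and below every WT library in the other. Over both batches the log2 fold change was -0.15 ± 0.38 (adjusted p = 0.755). With a genotype-by-batch term, added after the data were seen and resting on 1 library per line in batch 8995, the Bnip3 log2 fold change was 1.41 in batch 8995 and -0.79 in batch 9262, and the difference of 2.20 ± 0.22 passed the test (edgeR adjusted p = 5.66e-07). Such a difference was called for 26.6% of all genes. Without either batch 8995 library the Bnip3 log2 fold change in KO22 was -0.80 or -0.78 and was called lower. Without the batch 8995 KO22 library, 31.1% of all genes were called lower. Because of the batch term, both fits compare the lines within batch 9262 alone and count as 1 result.

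Bnip3l (also known as Nix; chr14:67222678-67246356, minus strand) also split by library. It was at 185 CPM in the batch 8995 WT library and at 242, 209 and 189 CPM in those of batch 9262, against 549, 248 and 241 CPM in KO22 and 216 and 362 CPM in KO26. The batch 8995 KO22 library and the batch 9262 KO26 library were the highest of the 9. The KO22 log2 fold change of 0.60 ± 0.24 did not pass the test (edgeR adjusted p = 0.0611), but DESeq2 called it (0.59, adjusted p = 0.0416), as did the fit with no batch term (0.75, adjusted p = 0.0458). Its KO22 difference was 1.57 in batch 8995 and 0.20 in batch 9262, and the difference between batches was 1.37 ± 0.20 (edgeR adjusted p = 2.87e-05).

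The same libraries led the HIF target genes. The mean log2 CPM of 20 HIF targets was 7.40 in the batch 8995 KO22 library, 6.84 in the batch 9262 KO26 library, 6.33 in the batch 8995 KO26 library and 5.81 to 6.18 in the other 6. Vegfa, the angiogenic growth factor, was at 575 CPM in the batch 8995 KO22 library and at 129 and 137 CPM in the other KO22 libraries. Ldha, the lactate-producing dehydrogenase, was at 1624 CPM against 1103 and 1129 CPM. In the batch 9262 KO22 libraries Bnip3 (108 and 96.5 CPM) lay below all WT libraries, Ldha lay above the WT range of 573 to 688 CPM, and the mean over the 20 targets was 6.18 and 6.07, beside 5.81 to 6.13 in WT. Culture density and oxygen are not given per library in the sources used here, and their part in these differences was not tested.

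**Figure D3:**
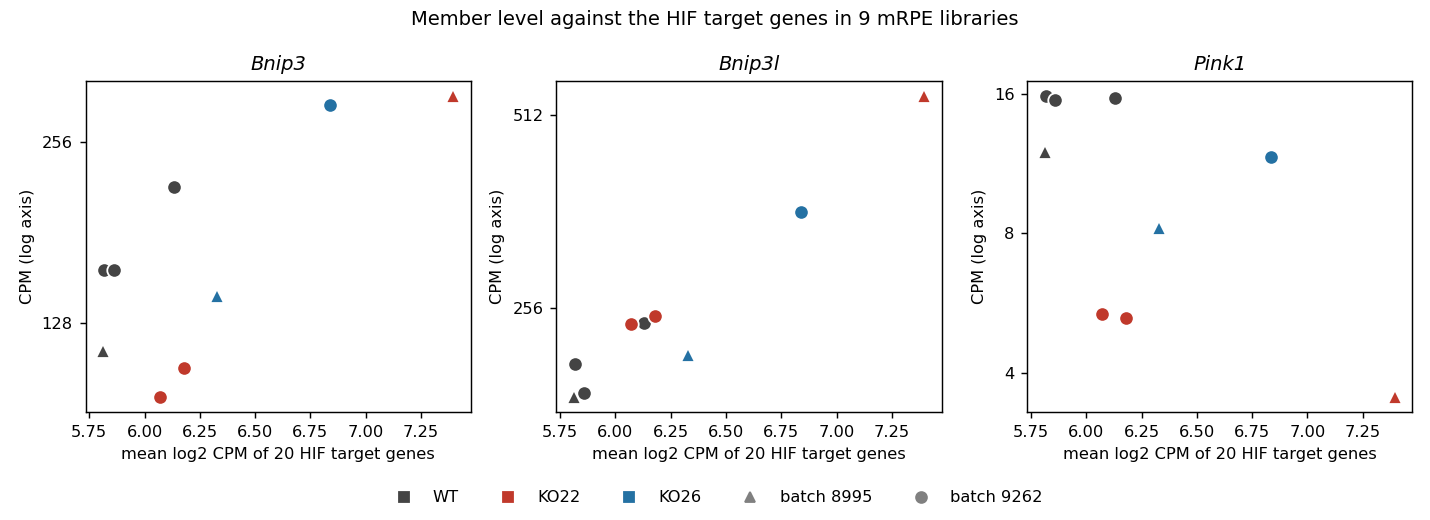
CPM of Bnip3, Bnip3l and Pink1 (vertical log axes) against the mean log2 CPM of 20 HIF target genes (horizontal axis) in the 9 mRPE libraries, coloured by line, with batch 8995 as triangles and batch 9262 as circles. The KO22 library at 7.40 and the KO26 library at 6.84 were the highest for Bnip3 and Bnip3l, and that same KO22 library was the lowest for Pink1 at 3.55 CPM.

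Among the other receptors, Fkbp8 (chr8:70976037-70987982, plus strand), an outer-membrane FK506-binding protein and mitophagy receptor, rose in KO22. It was at 52.2, 48.9, 47.2 and 54.3 CPM in WT and at 72.6, 83.0 and 78.3 CPM in KO22, so the lines did not overlap, as for 24.8% of genes in this direction. The log2 fold change was 0.62 ± 0.11 (adjusted p = 0.000914), with 0.47 within batch 8995 and 0.68 within batch 9262. Fkbp8 lies on chromosome 8, whose 1089 tested genes centred on 0.60 (the median log2 value, KO22 over WT), the highest of the 20 chromosomes analysed, and Fkbp8 stood 0.02 from that median. A chromosome-wide part in its difference was not tested.

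Phb2 (chr6:124689299-124693913, plus strand), the inner-membrane prohibitin that acts as a receptor after the outer membrane ruptures, was at 65.0 CPM in the batch 8995 WT library, 58.1, 59.1 and 51.8 CPM in the others, 62.7 CPM in the batch 8995 KO22 library, and 90.9 and 98.3 CPM in the other KO22 libraries. Only the batch 9262 KO22 libraries lay above WT. The log2 fold change of 0.52 ± 0.15 was called (adjusted p = 0.0188), but the call was lost on leaving out any one of the 5 batch 9262 libraries (adjusted p = 0.0568 to 0.111) and in the fit over 9 libraries (0.0584). The KO22 difference was -0.05 in batch 8995 and 0.75 in batch 9262, with a tested difference between batches of -0.80 ± 0.17 (edgeR adjusted p = 0.00153). The median of its chromosome 6 was -0.45.

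Fundc1 (chrX:17386204-17438572, minus strand), an X-linked receptor regulated by phosphorylation, was at 39.0, 35.9, 36.9 and 31.9 CPM in WT and at 27.2, 30.7 and 27.5 CPM in KO22, all below WT, as for 25.3% of genes. It fell by 0.34 ± 0.12 on the log2 scale (adjusted p = 0.0384), and the call was lost without WT replicate 2 (0.0770), WT replicate 3 (0.0927) or KO22 replicate 3 (0.0740), with no batch term (0.0636) and in the fit over 9 libraries (0.115). Bcl2l13 (chr6:120813144-120891322, plus strand), the mammalian counterpart of yeast Atg32, ranged from 26.7 to 31.8 CPM in WT and from 28.7 to 36.5 CPM in KO22 (0.13 ± 0.11, adjusted p = 0.325). Its chromosome is that of Phb2.

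The regulators of ubiquitin on the outer membrane were not called. Mul1 (chr4:138161965-138170337, plus strand) ranged from 3.59 to 4.52 CPM in WT and from 3.55 to 5.28 CPM in KO22 (log2 fold change 0.11 ± 0.21, adjusted p = 0.673), on as few as 41 counts in a KO22 library. Usp30 (chr5:114203522-114262781, plus strand) ranged from 15.9 to 17.6 CPM in WT and from 15.2 to 16.4 CPM in KO22 (-0.07 ± 0.13, adjusted p = 0.67). Vdac1 (chr11:52251198-52280348, plus strand), the outer-membrane anion channel, rose. It was at 92.9 CPM in the batch 8995 WT library and at 58.8, 55.9 and 52.0 CPM in the other WT libraries, against 130, 89.2 and 102 CPM in KO22, so that KO22 lay above WT within each batch although the groups overlapped across batches. The log2 fold change was 0.69 ± 0.11 (adjusted p = 0.000669).

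**Figure D4:**
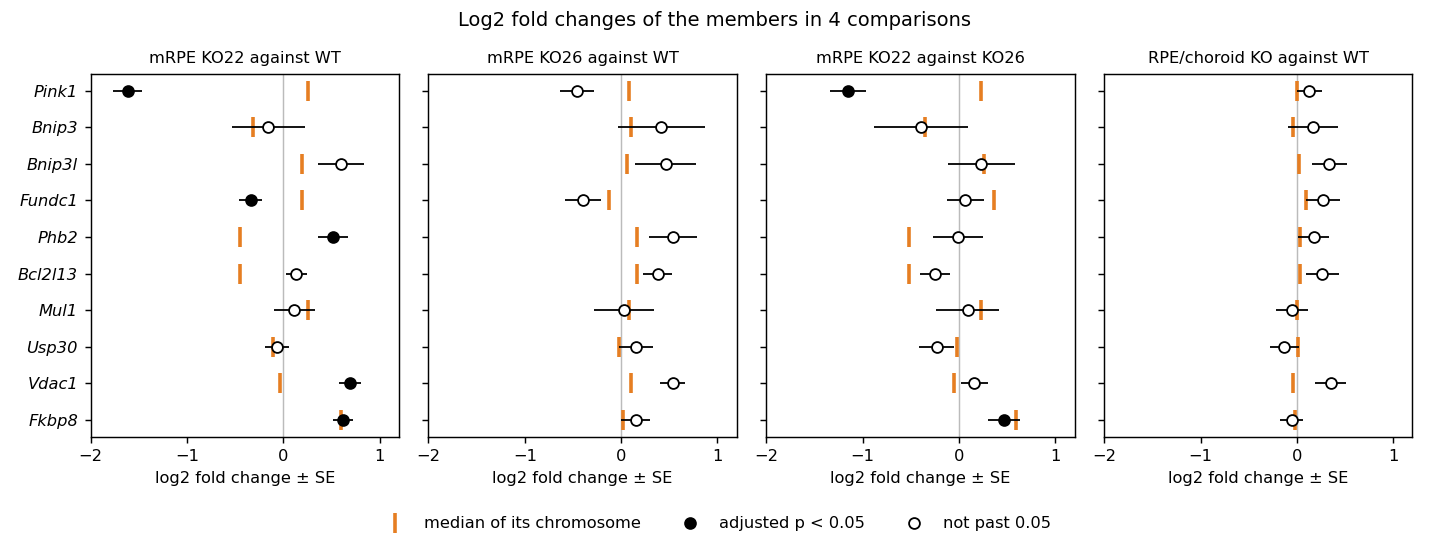
Log2 fold change ± SE of each member (horizontal axes) in 4 comparisons, with filled circles for an edgeR adjusted p under 0.05, open circles otherwise, and orange ticks at the median of all tested genes of the member's chromosome. Pink1 lay at -1.61 in KO22 and -0.46 in KO26, Fkbp8 lay on its chromosome median in KO22, and no tissue value was called.

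Clone KO26, whose libraries the study removed as outliers, was compared with WT in a fit of all 9 mRPE libraries. No member was called in it by edgeR, where 2.36% of 20737 genes were called higher and 1.13% lower (1.92% past both limits). At an unadjusted p under 0.05 there were 3 of the 10 members, where 20.1% of all genes were, and DESeq2 called 1 higher, where it called 4.70% of all genes higher and 3.01% lower. Pink1 had a log2 fold change of -0.46 ± 0.18 (adjusted p = 0.183), with -0.52 within batch 8995 and -0.41 within batch 9262, and both KO26 libraries were below all WT libraries, as for 12.8% of genes. Vdac1, at 124 and 83.2 CPM, had 0.53 ± 0.13 (adjusted p = 0.0543), and DESeq2 called it (adjusted p = 0.0106). Bcl2l13, at 40.2 and 35.5 CPM, had 0.38 ± 0.15 (adjusted p = 0.192), with both libraries above WT, as for 11.9% of genes.

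The count in KO26 depended on the libraries in the fit. Without the batch 8995 KO22 library, 4 members were called higher and 1 lower, where 10.5% of all genes were called higher and 6.99% lower. With KO26 and WT alone, a fit added after the data were seen, 3 were called higher (Vdac1 0.49, adjusted p = 0.00784; Bnip3l 0.53, adjusted p = 0.0212; Bnip3 0.55, adjusted p = 0.0226, all by edgeR) and 1 lower (Pink1 -0.50, adjusted p = 0.0459). That fit called 8.76% of all genes higher and 7.06% lower, so calls rose over all genes in both fits.

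The clones were set against each other in the same 9-library fit, with which both comparisons to WT share libraries. Pink1 was lower in KO22 than in KO26 by a log2 difference of -1.15 ± 0.19 (edgeR adjusted p = 0.00107), 2.22-fold, and the clones did not overlap, as for 24.6% of genes in this direction; 18.1% of genes were called lower. Fkbp8 was higher in KO22 by 0.47 ± 0.16 (edgeR adjusted p = 0.046), where 16.3% of genes were called higher, and KO26 held 65.9 and 48.5 CPM. The chromosome 8 median was 0.59 in this comparison. The Fkbp8 call was lost on leaving out any of 7 libraries (adjusted p = 0.0547 to 0.409), among them the batch 9262 KO26 library, without which the difference was 0.22. The other 8 members did not pass the test between clones, and none passed both limits, as 18.3% of genes did. Bnip3 differed by -1.39 (edgeR adjusted p = 1.27e-05) once the batch 8995 KO22 library was left out, against -0.40 with it.

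In RPE/choroid, no member was called between tissue labelled Prom1_KO and WT, in a fit of 6 libraries in which edgeR called 0% of 24926 genes higher and 0.193% lower (0.189% past both limits). No member had an unadjusted p under 0.05 and DESeq2 called none, while over all genes 8.30% had an unadjusted p under 0.05 and DESeq2 called 0.578% higher and 1.22% lower. In simulated tissue data, edgeR recovered 7 of 200 genes changed by 1 on the log2 scale and 165 of 200 changed by 2. Those genes were drawn from all genes above 1 CPM, so these shares do not describe the members. The standard errors of the members ran from 0.12 (Fkbp8) to 0.26 (Bnip3). A lack of calls alone does not show a lack of change. Vdac1 was at 45.6, 36.3 and 40.3 CPM in WT and at 46.8, 46.9 and 62.3 CPM in tissue labelled Prom1_KO, without overlap (log2 fold change 0.35 ± 0.16, adjusted p = 0.647). Bnip3l was at 32.8, 32.4 and 34.3 CPM against 34.6, 37.1 and 54.0 CPM, also without overlap (0.34 ± 0.18, adjusted p = 0.701). Of all 24926 genes, 6.71% were higher without overlap and 7.89% lower. The highest value of each member was the library with 84.2% mitochondrially encoded counts. Without it the log2 fold changes were 0.19 for Vdac1 and 0.10 for Bnip3l.

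Pink1 was at 15.8, 16.9 and 18.9 CPM in WT tissue and at 19.7, 17.5 and 19.3 CPM in tissue labelled Prom1_KO. The groups overlapped, and the log2 fold change was 0.13 ± 0.13 (adjusted p = 0.849). Fundc1 (0.27 ± 0.18), Bcl2l13 (0.26 ± 0.17), Phb2 (0.17 ± 0.16) and Bnip3 (0.17 ± 0.26) had positive estimates, and Usp30 (-0.13 ± 0.15), Fkbp8 (-0.05 ± 0.12) and Mul1 (-0.05 ± 0.17) negative ones.

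**Figure D5:**
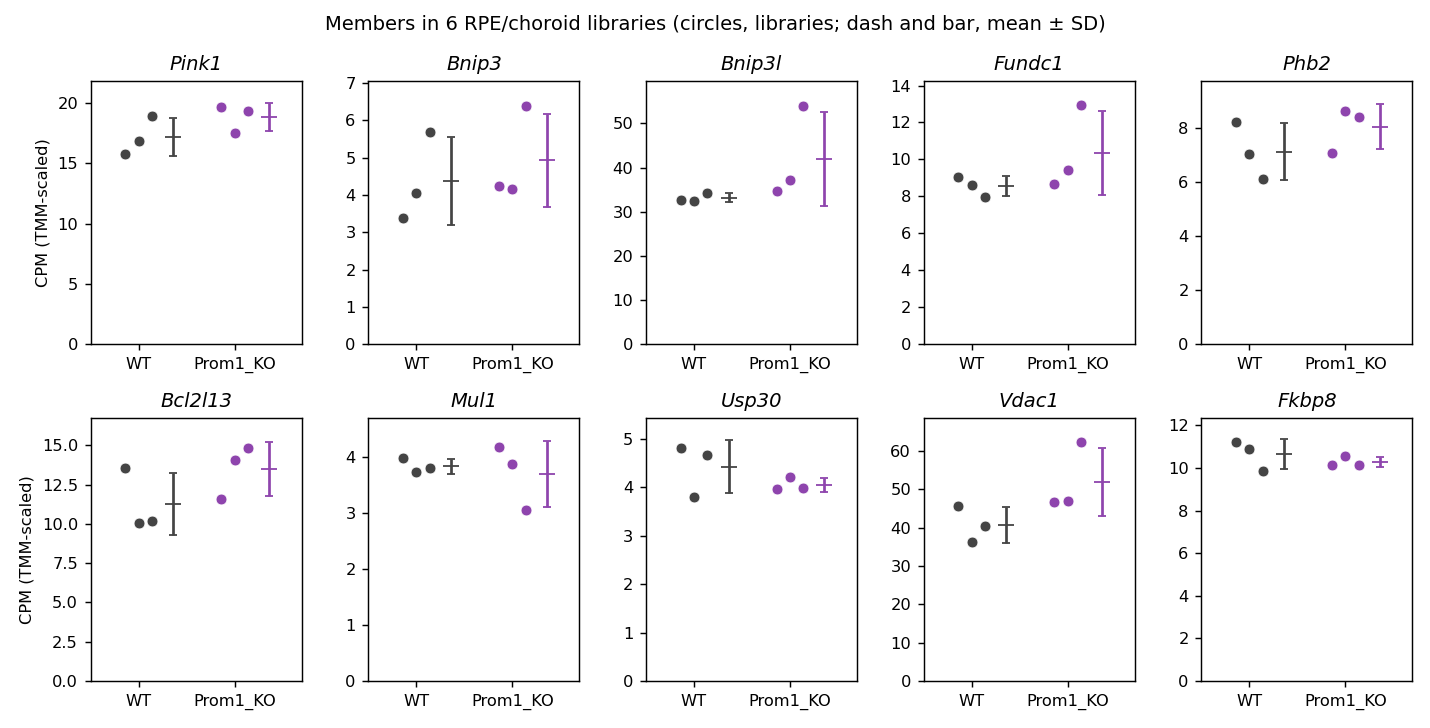
TMM-scaled CPM of each member (vertical axes from 0) in the 3 WT and 3 Prom1_KO-labelled RPE/choroid libraries, with each circle a library and the dash and bar the mean ± SD. Only Bnip3l and Vdac1 did not overlap between groups, as 14.6% of all genes did not, and for both the highest circle, at 54.0 and 62.3 CPM, is 1 library.

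RPE marker genes moved with the tissue groups, and are given here as values with no test. The summed level of 15 RPE markers was 2642 to 3607 CPM in WT and 1291 to 1469 CPM in libraries labelled Prom1_KO. Rpe65, the retinoid isomerase, was at 280, 204 and 287 CPM in WT and at 1.13, 5.98 and 4.48 CPM in libraries labelled Prom1_KO, and Rgr, the RPE opsin, at 759, 546 and 786 CPM against 6.70, 30.7 and 18.3 CPM. The pigment genes Tyr (65.3 to 95.8 CPM in WT, 81.5 to 115 CPM in the others) and Dct (315 to 545 and 570 to 619 CPM) did not fall with them. Photoreceptor markers ranged from 22.89 to 1234 CPM over all 6 libraries, muscle markers from 74.9 to 1095 CPM and erythroid markers from 14.97 to 115 CPM, with groups overlapping in each. Choroidal endothelial markers did not overlap. They summed to 111.9, 225.2 and 147.9 CPM in WT and to 101.9, 92.66 and 79.78 CPM in libraries labelled Prom1_KO. The part of these differences in the member values was not tested.

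The genes around the members were described by lists. In the KO22 fit, 26.9% of all genes were called higher and 26.1% lower. Of 12 tested genes for PINK1 import, stabilization and activation, 9 were called higher in KO22 and 1 lower (median log2 fold change 0.91, all genes -0.03). Tomm70a (1.50), Tomm20 (1.203) and Timm23 (1.35), subunits of the import machinery through which PINK1 passes, rose, and so did Parl (0.80), the inner-membrane protease that cleaves PINK1. Fbxo7, an F-box protein, fell by 1.02 on the log2 scale. Of 12 outer-membrane proteins ubiquitinated or handled in mitophagy, 7 were called higher and 0 lower (DESeq2 7 and 0; 7 at an unadjusted p under 0.05), including Vdac3 (1.197), Vdac2 (0.84) and the mitofusins Mfn1 (0.45) and Mfn2 (0.44), while Fis1 was at 0.10.

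The list of mitophagy adaptors and kinases went largely the other way in KO22. Of 15 adaptors and kinases, 9 were called lower and 2 higher (median -0.36), where 26.1% of all genes were lower and 26.9% higher. Nipsnap1, which marks damaged mitochondria for autophagy, fell by 3.08 ± 0.35 on the log2 scale (adjusted p = 7.94e-05), Calcoco1 fell by 1.47, Rb1cc1 (FIP200) fell by 1.01 and Ulk1 fell by 0.72. Optn, the optineurin adaptor, rose by 1.66 ± 0.18 (adjusted p = 6.59e-05). Of 11 ubiquitin ligases and deubiquitinases, 3 were higher and 4 lower (median -0.03), not far from the shares of all genes. Fbxl4, a suppressor of BNIP3 and BNIP3L protein, was at -1.23 ± 0.15 (edgeR adjusted p = 0.000116).

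Among 15 upstream transcription factors, 9 were called higher and 4 lower in KO22 (median 0.52), where 26.9% and 26.1% of all genes were. Mitf (1.41 ± 0.33, adjusted p = 0.0055) and Ppargc1a (2.62 ± 0.62, adjusted p = 0.00602), regulators of pigment-cell identity and mitochondrial biogenesis, rose, and Hif1a (0.52), Epas1 (0.80) and Tfeb (0.74) rose with them. Foxo3 (-0.52) and Foxo1 (-0.69) fell. Of 20 HIF targets, 9 were higher and 3 lower (median 0.96), with Ak4 (1.76), Pfkfb4 (1.60) and Ero1a (2.12) higher and Adm (-2.22) lower; without the batch 8995 KO22 library 9 were higher and 7 lower, where 32.4% and 31.1% of all genes were. Of 14 nuclear-encoded mitochondrial genes, 9 were higher and none lower (median 0.67), led by Hspa9 (1.49), Uqcrc1 (1.59) and Hspd1 (1.84), and all 14 were higher when the batch 8995 KO22 library was left out or the batch 8995 WT library, without which 32.8% of all genes were. Vdac1 and Phb2 changed in the same direction as that list. None of 8 mitochondrially encoded genes was called by edgeR or DESeq2, and none had an unadjusted p under 0.05; 4 were called higher without WT replicate 1 and 6 without KO22 replicate 1.

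In KO26 the fit of 9 libraries called 5 list genes in all: Hk2 (1.16), Hk1 (0.88), Ldha (0.84) and Hspa9 (0.86) higher and Rb1cc1 (-0.79) lower. Over all genes it called 2.36% higher and 1.13% lower. The HIF target median was 0.69, with 1 of 20 called higher. With KO26 and WT alone 15 of 20 were called higher, where 8.76% of all genes were. In RPE/choroid no gene of the 8 lists was called by edgeR. At an unadjusted p under 0.05 there were 3 of 20 HIF targets, 3 of 11 mitochondrially encoded genes, 2 of 15 transcription factors and 0 in the other 5 lists, and DESeq2 called 1 gene in each of these 3 lists. Over all genes 8.30% had an unadjusted p under 0.05, and DESeq2 called 0.578% higher and 1.22% lower. The 11 mitochondrially encoded genes summed to 77760 CPM in Prom1_KO replicate 3 and to 69130 to 84750 CPM in the other tissue libraries.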

How the data were processed

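PolyA RNA was sequenced from mRPE cells and RPE/choroid. The authors trimmed reads with Trim Galore 0.6.7, aligned them to mm39 with STAR and deposited raw counts per gene, from which genes with low counts had been excluded. They also deposited signal values, the counts divided by a size factor per library (DESeq2 1.42.0 per the labels), which were not used here. For tissue, the counting step beyond STAR is not given in the sources used here. Libraries were grouped by their labels. The counts were fitted with edgeR 4.0.16 under R 4.3.3, using quasi-likelihood F tests (TMM, at least 5 counts in at least 3 libraries, batch as a term for mRPE, Benjamini-Hochberg adjustment over all genes), and the test was run on simulated data. A second limit added an absolute log2 fold change over 1.2. CPM is TMM-scaled, and within-batch differences used a pseudocount of 0.5 CPM. Standard errors are the absolute log2 fold change over the square root of F. DESeq2 1.42.0, its size factors, 2 other filters, fits without batch or with other libraries, and each library left out were tried. GENCODE annotation of GRCm39, the same build as mm39, gave positions and exon lengths. The genes named are the 10 members, up to 3 per list and direction with the smallest adjusted p past both limits, and, chosen after their values were seen, further list genes, markers and Ddost. The members and lists were chosen with earlier results of these data known. Prom1 in mRPE is not analysed here, and some genes of the pathway are not reported.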

Additional observations from a re-analysis of the deposited data

Results flagged for a closer look

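Within the 4 WT mRPE libraries, the library of batch 8995 lay far from the other 3 for 2 members: Pink1 at 11.96 CPM against 15.5 to 15.81 CPM, and Vdac1 at 92.89 CPM against 52.03 to 58.75 CPM. It is the only WT library of its batch, and chance alone would single out about 1 group in 20.

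The clones differed by test for 2 members. The log2 difference of KO22 minus KO26 was -1.15 for Pink1 and 0.47 for Fkbp8 (edgeR adjusted p = 0.00107 and 0.046).

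The KO22 effect differed between batches for 3 members, with batch 8995 minus batch 9262 at 2.2 for Bnip3, 1.37 for Bnip3l and -0.8 for Phb2 on the log2 scale (edgeR adjusted p = 5.66e-07, 2.87e-05 and 0.00153). Batch 8995 held 1 library per line, and a difference of this kind was called for 26.6% of all genes.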

How the results depend on the processing

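In the tissue, no setting called a member. Pink1 in KO22 stayed past both limits under every setting with a test (log2 fold change -1.69 to -1.55 on leaving out a library), and Vdac1 and Fkbp8 stayed called higher. In KO22 the count called lower was 1 with no batch term (4664 of all 20455 genes) and in 1 fit over 9 libraries (5043 of 20737). Leaving out a library gave 1 to 3, where 4437 to 6295 of all 19939 to 20278 genes were called lower. In KO26 the count called higher was 1 with DESeq2 (975 of all 20737 genes) and with filterByExpr (521 of 18835). It was 3 with KO26 and WT alone, which called 1 lower (1742 and 1404 of 19877 genes). Leaving out a library gave 0 to 4 members higher and 0 to 1 lower. Over all 20411 to 20668 genes tested it gave 94 to 2147 higher and 33 to 1431 lower. Between clones, 0 were higher with no batch term (2393 of all 20737 genes). Leaving out a library gave 0 to 1 members higher, 1 to 2 lower and 0 to 1 past both limits. Over all genes it gave 2409 to 4827 higher and 2964 to 4392 lower. The cause of these changes was not tested.

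Reversals touched values that were not called, except Phb2 in KO22, at -0.0525 within batch 8995. Bnip3 in KO22 was 0.0747 with no batch term and 0.0211 over 9 libraries. Phb2 between clones was 0.0041 with DESeq2 size factors and 0.0059 with DESeq2, and Mul1 in KO26 was -0.0649 with KO26 and WT alone. On leaving out a library, the KO22 range was -0.7987 to 0.1551 for Bnip3 and -0.0417 to 0.2659 for Mul1. The KO26 range was -0.5653 to 0.5298 for Mul1, -0.0684 to 0.4096 for Usp30, -0.0739 to 0.408 for Fkbp8, -0.6736 to 0.9611 for Bnip3 and -0.3385 to 0.9142 for Bnip3l. Between clones it was -0.5253 to 0.4746 for Phb2, -0.4001 to 0.9399 for Bnip3l, -0.2402 to 0.4665 for Fundc1, -0.4143 to 0.6801 for Mul1 and -1.3896 to 0.5207 for Bnip3, and in tissue -0.0705 to 0.4016 for Bnip3 and -0.1539 to 0.0571 for Mul1. With 2 KO26 libraries, leaving 1 out assumes that the other varies like the remaining lines. No paired analysis was possible because the labels give no replicate numbers, only running library names; the batch they show entered the main mRPE fits as a term.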
